A study of Mus musculus with 20 samples.

Results

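Amacrine cells and rods were compared as alternative fates of late retinal progenitors in the P2 control retina, library against itself. The cells were those that the authors named Amacrine Cells or Rods in the 4 libraries labelled P2 GFP, 21854 of the 79009 cells of the series: 8252 amacrine cells and 13602 rods. The 3516 cells named Neurogenics in the same libraries, a name for progenitors that are about to become neurons, served as the starting point. All 4 libraries came from explants of wild-type CD1 mouse retina, labelled postnatal day 2 and electroporated with the GFP control construct, an empty pCAGIG vector whose broadly active CAG promoter drives GFP, and GFP-positive cells were isolated before droplet capture. The 4 P5 control libraries, given the same construct and labelled postnatal day 5, are used at the end.

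Several labels limit what these groups stand for. For the other arms the submitters' design text speaks of NR2F1 and NR2F2 while the sample labels and title speak of MEIS1 and MEIS2, and it takes 2 and 5 as the days a construct was present, where the sample labels take them as postnatal ages. Cells of P2 control 1 carry barcodes that start with the name of a MEIS combination library, and barcodes of the other 3 P2 controls start with control numbers other than their own. An alternative fit took libraries from barcode starts. It left out P2 control 1 and took in cells labelled as a P2 MEIS combination library (361 amacrine cells, 822 rods and 226 neurogenic cells). In rod sums of libraries 1 to 4, Meis2 stood at 1309, 1410.4, 1267 and 1260.4 CPM (UMI counts scaled to a common library size) and Meis1 at 439, 258, 273 and 172. P2 control 1 was thus not the highest for Meis2 and was the highest for Meis1. No level of a MEIS library is set beside them, so these values cannot tell which name of P2 control 1 is right. No label says that the libraries came from separate animals or cultures, so p-values measure the spread between these libraries, which may be technical. Because only GFP-positive cells were kept, cells that did not take up the construct are not represented.

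Rods and amacrine cells arise from the same multipotent progenitors, and both are still being born in the first days after birth in mice. Rod fate depends on OTX2, which acts upstream of CRX and of the leucine zipper factor NRL, and NRL in turn activates the nuclear receptor NR2E3. Amacrine fate depends on PTF1A, which activates PRDM13 and the TFAP2 factors, and amacrine cells are inhibitory interneurons that use GABA or glycine.

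DNA before the RefSeq starts of rod genes is shown first, because several carry the letters that CRX and OTX2 recognise. TAATCC was searched on both strands in the 250 bases before each RefSeq start (GRCm38.p6), counting a gene once if any of its windows held it. It was found for 5 of 12 rod factors and 6 of 15 outer segment genes with a window, 41.7% and 40.0%, against 7.21% of the 27025 genes of the table and 6.25% of its 32851 windows. Of 16 amacrine factors with a window, 2 held it (Prdm13 and Isl1), or 12.5%. The rod factors with it were Otx2, Crx, Samd7, Samd11 and Casz1. A match describes letters and is no evidence of binding. The 5 windows shown are those of the rod lists with the highest mean level among windows that overlap no annotated exon. Capitals mark TAATCC or its reverse complement GGATTA, and each window ends at the base before the start. The windows of Unc119 and Casz1 precede a start inside the gene as GENCODE M21 gives it, so they lie within the gene though in no annotated exon. The other 3 lie in no annotated gene.
Unc119, chr11:78345334-78345583, plus strand: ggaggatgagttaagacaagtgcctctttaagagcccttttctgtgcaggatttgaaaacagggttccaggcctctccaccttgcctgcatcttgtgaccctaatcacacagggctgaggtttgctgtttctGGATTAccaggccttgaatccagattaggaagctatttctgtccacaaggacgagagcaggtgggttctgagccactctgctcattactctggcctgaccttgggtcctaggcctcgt
Casz1, chr4:148889097-148889346, plus strand: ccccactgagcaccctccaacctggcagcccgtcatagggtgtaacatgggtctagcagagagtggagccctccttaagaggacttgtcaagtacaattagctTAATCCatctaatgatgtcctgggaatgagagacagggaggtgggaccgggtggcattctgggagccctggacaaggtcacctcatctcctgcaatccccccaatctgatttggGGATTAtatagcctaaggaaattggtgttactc
Sag, chr1:87803430-87803679, plus strand: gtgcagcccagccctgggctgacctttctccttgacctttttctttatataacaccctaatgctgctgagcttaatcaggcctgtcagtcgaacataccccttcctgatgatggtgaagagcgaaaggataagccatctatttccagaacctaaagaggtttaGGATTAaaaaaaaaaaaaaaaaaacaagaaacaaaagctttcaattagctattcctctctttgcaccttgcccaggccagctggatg
Rbp3, chr14:33953753-33954002, plus strand: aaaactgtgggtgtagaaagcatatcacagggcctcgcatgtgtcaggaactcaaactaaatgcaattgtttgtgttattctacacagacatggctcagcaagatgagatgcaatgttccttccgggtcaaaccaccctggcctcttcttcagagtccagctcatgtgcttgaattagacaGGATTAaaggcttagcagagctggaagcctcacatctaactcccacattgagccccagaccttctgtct
Samd7, chr3:30746043-30746292, plus strand: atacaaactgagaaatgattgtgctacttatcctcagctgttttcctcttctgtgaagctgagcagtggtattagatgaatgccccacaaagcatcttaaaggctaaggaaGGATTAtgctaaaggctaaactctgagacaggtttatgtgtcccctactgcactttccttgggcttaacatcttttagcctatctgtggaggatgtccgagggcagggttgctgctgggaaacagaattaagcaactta
The letters TGCTGA, part of the sequence that NRL recognises, were present for 6 of the 12 rod factors and 6 of the 15 outer segment genes (50.0% and 40.0%), 1 of 16 amacrine factors (6.25%), and 18.0% of all genes of the table. Each motif was counted on its own, with overlaps between motifs left in.

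GCCNNNGGC, the palindrome that TFAP2 factors recognise, was present for 3 of 16 amacrine factors (18.8%), against 15.4% of all genes, 16.7% of rod factors and 13.3% of outer segment genes. The share in amacrine factors is thus close to that of all genes. The 3 genes were Pax6, Ebf3 and Nr4a2. Among amacrine factors and inhibitory transmitter genes together, 5 genes held the match, 4 of them in a window that overlaps no annotated exon. The 3 of these with the highest mean level are shown, and capitals mark the match. The Pax6 window lies within the gene Pax6os1.
Pax6, chr2:105668646-105668895, plus strand: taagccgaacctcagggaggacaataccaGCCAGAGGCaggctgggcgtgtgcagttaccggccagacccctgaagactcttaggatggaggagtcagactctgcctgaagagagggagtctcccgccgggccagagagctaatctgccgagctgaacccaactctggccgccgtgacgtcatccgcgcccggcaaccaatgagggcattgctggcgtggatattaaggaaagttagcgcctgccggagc
Ebf3, chr7:137314446-137314695, minus strand: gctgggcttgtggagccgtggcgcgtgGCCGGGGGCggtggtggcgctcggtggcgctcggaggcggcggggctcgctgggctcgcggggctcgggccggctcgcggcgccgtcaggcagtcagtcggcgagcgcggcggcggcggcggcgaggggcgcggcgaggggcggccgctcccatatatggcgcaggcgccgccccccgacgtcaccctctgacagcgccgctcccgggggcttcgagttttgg
Nr4a2, chr2:57124004-57124253, minus strand: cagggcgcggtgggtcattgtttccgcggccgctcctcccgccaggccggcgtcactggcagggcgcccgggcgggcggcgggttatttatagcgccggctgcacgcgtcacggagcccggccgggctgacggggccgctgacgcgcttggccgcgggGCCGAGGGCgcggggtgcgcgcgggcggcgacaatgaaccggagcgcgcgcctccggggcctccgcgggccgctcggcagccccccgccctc

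Library sums held 2502725 to 50317436 UMIs (unique molecular identifiers, one per captured transcript), with the amacrine sum of P2 control 1 the largest. Libraries 1 to 4 held 6115, 804, 950 and 383 amacrine cells, 6928, 2627, 2308 and 1739 rods, and 1733, 448, 606 and 729 neurogenic cells. Amacrine cells per rod were therefore 0.883, 0.306, 0.412 and 0.220. Amacrine cells had more UMIs than rods in each of the 4 libraries, with medians of 7827, 2778, 3420 and 6836 against 4867, 1728, 2183 and 3593. Pairs of P2 control libraries shared 3 to 30 cell barcodes. CPM values below are given in the order of libraries 1 to 4, scaled by TMM factors (0.861 to 1.14 in P2 sums). Exceptions without TMM factors are the summed CPM of lists, list levels as a percent of another type, and cluster means. Tests compare values within a gene only, while summed levels of lists add CPM of different genes.

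Most of the fixed markers were seen most often in the type they mark, with exceptions. At an equal depth of 1000 UMIs per cell, Pax6 was detected in 59.6% ± 5.61 of amacrine cells (SD, n = 4 libraries) and 4.66% ± 1.68 of rods, and Gad2 in 34.7% ± 5.22 and 2.15% ± 1.01. Crx was detected in 38.1% ± 6.02 of rods and 5.24% ± 2.84 of amacrine cells, and Nrl in 26.1% ± 2.42 and 3.24% ± 1.21. Progenitors, which should lack Nrl, gave 1.53% ± 0.545, below the amacrine share. The amacrine marker Slc6a9 did not separate the types, at 1.79% to 6.88% of amacrine cells and 2.61% to 5.00% of rods over the 4 libraries. The neurogenic marker Gadd45a was more frequent in amacrine cells (8.59% ± 3.25) than in neurogenic cells (3.85% ± 1.28), and Neurog2 was at 6.77% ± 3.21 and 7.97% ± 4.63. Without thinning, Nrl was seen in 51.8% of rods, 14.4% of amacrine cells and 8.38% of progenitors. Thinning left out 40 of the amacrine cells, 261 of the rods and 30 of the progenitors, whose median depths were 6049.5, 3800.0 and 8318 UMIs. Gnat1, rod transducin, was almost undetected, with 106 UMIs over all P2 rods. The types were named from the expression of these same cells, so marker differences describe the naming, and the tests below measure how repeatable a difference was across libraries.

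Of 12935 genes tested, 7355 differed between amacrine and rod sums at an adjusted p under 0.05 (edgeR quasi-likelihood test with Benjamini-Hochberg adjustment, library as a block), or 56.9%. Of these, 3524 were higher in amacrine cells (27.2%) and 3831 higher in rods (29.6%). By 2-fold or more, 1941 were higher in amacrine cells (15.0%) and 1435 in rods (11.1%). Counts of list members below are to be read against these shares. Without the library block the test called 4092 genes. That fit ignores the pairing of types by library, so differences between libraries enter its error. Calls lost without the block are to be read with this in mind. Groups did not overlap, with all 4 amacrine sums above all 4 rod sums, for 16.1% of genes, and with all below for 14.0%.

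Against neurogenic cells, amacrine cells differed in 6191 genes (47.9%), 23.5% higher and 24.4% lower, or 12.4% and 8.33% by 2-fold or more. Rods differed from neurogenic cells in 6075 genes (47.0%), 23.2% higher and 23.8% lower, or 8.07% and 9.78% by 2-fold or more. Without the block these counts were 2931 and 2542. The 3 comparisons share sums and are not independent of each other. Rod factors, phototransduction and outer segment genes (46 tested, Rorb among them) summed to 11307, 10895, 7974 and 13841 CPM in neurogenic sums. In amacrine sums they summed to 6512, 6425, 5478 and 9533 CPM. Neurogenic cells are thus a reference that held more RNA of rod genes than amacrine cells did, and no path of cells was traced. Of 17 receptor genes, 17 were higher in amacrine than in neurogenic cells, while rods had 2 higher, 1 lower and 14 that did not pass. Of 18 neurite genes, 16 were higher in amacrine cells and 2 lower, against 2 and 11 in rods. Of 16 phototransduction genes, 13 were higher in rods and 8 in amacrine cells, and none was lower in either. Of 17 outer segment genes, 15 were higher and 1 lower in rods (Crb1), and 8 were higher and 3 lower in amacrine cells (Abca4, Crb1 and Prom1). The amacrine counts of these 2 lists depended on the fit and the cells. Without the block 4 phototransduction and 1 outer segment genes were higher in amacrine than in neurogenic cells, Sag (adjusted p = 0.272) and Gnb1 (0.0892) being among those lost. Without cells marked as doublets the counts were 7 and 5, and without the 10% of cells with the highest doublet scores they were 5 of 15 and 5 of 17, with Gngt1 lost (adjusted p = 0.135) and Unc119 called lower (log2 -1.06, adjusted p = 0.00274). Without P2 control 3, 5 of 17 phototransduction genes were higher.

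Amacrine factors were led by Ptf1a, the basic helix-loop-helix gene on chromosome 2, 19445663 to 19447501 (mm10, GENCODE M21). Its level was 97.5, 125, 279.7 and 290.1 CPM in amacrine cells and 1.54, 1.76, 1.17 and 1.20 in rods. The groups did not overlap, and the log2 fold change was 6.76 ± 0.516 SE (adjusted p = 5.97e-07). Neurogenic cells held 8.20, 6.48, 27.9 and 1.15 CPM, so that library 3 was the highest and library 4 the lowest. Prdm13, the zinc finger factor downstream of PTF1A, had a mean of 189 ± 83.0 CPM in amacrine cells, 2.08 ± 1.09 in rods and 3.57 ± 1.93 in neurogenic cells (SD, n = 4).

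The 3 TFAP2 factors, which mark differentiating amacrine cells, were higher in amacrine cells by log2 5.16 ± 0.383 SE (Tfap2a), 5.17 ± 0.509 SE (Tfap2b) and 5.56 ± 0.419 SE (Tfap2c). Without P2 control 1, Tfap2a became 5.78 and Tfap2c 6.48, and without P2 control 4 Tfap2b became 4.58. Tfap2b read 863, 429, 427 and 428 CPM in amacrine cells and 48.6, 27.8, 6.83 and 1.20 in rods. The amacrine values were close together in libraries 2 to 4, while the rod values ran from the highest in library 1 to the lowest in library 4. Pax6, the eye field factor that amacrine cells keep, read 758, 908, 1205 and 834 CPM in amacrine cells, 156, 151, 227 and 138 in neurogenic cells and 56.3, 49.4, 52.3 and 27.4 in rods. Neurogenic cells therefore lay between the fates, and rods over neurogenic cells gave a log2 fold change of -1.85 ± 0.168 SE (adjusted p = 5.30e-06).

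Of 19 tested amacrine factors, 15 were higher in amacrine cells and 2 higher in rods, with a median log2 fold change of 3.98 against -0.04 over all genes. Barhl2 (4.75), Ebf3 (4.74), Lhx9 (4.45) and Neurod2 (3.98) were among the 15, and Lhx9 became 5.03 without P2 control 1. Neurod2 and Ebf3 were lower in rods than in neurogenic cells (-2.65 and -2.05), whereas Barhl2 and Prdm13 were low in both and did not pass the test between them (-0.37 and -0.40). Foxn4, an early gene that primes progenitors for amacrine fate, was one of the exceptions (-1.57). Bhlhe22, another of the 15, was the smallest of them (0.41) and lost its call in 5 alternatives, among them leaving out P2 control 1, 2 or 3. In amacrine over neurogenic cells, 15 of the 19 factors were higher and 3 lower (Foxn4, Bhlhe22 and Isl1), and in rods over neurogenic cells 4 were higher, among them Meis1, Meis2 and Nr4a2 (lost without the block, adjusted p = 0.264), and 11 lower. Foxn4 averaged 12.9 ± 10.5 CPM in neurogenic cells and 1.24 ± 1.17 in amacrine cells. Its call against rods was lost without P2 control 1 (log2 -0.98, adjusted p = 0.149), with libraries taken from barcode starts and without the block. Isl1, found in starburst amacrine cells, did not pass the test (0.57 ± 0.557 SE, adjusted p = 0.407). With the few cells that the authors called Starburst Amacrine Cells added (29, 17, 2 and 2), it became 3.18 with an adjusted p of 0.000458. Neurod6 was too low to test, with 108 UMIs in amacrine cells and 1 in rods.

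Meis2, a homeobox gene of GABAergic amacrine cells and one of the genes overexpressed in the series, did not separate the fates. It read 1313, 2029.8, 1299.7 and 841 CPM in amacrine cells and 1309, 1410.4, 1267 and 1260.4 in rods. The groups overlapped, with a log2 fold change of -0.01 ± 0.179 SE (adjusted p = 0.954). Neurogenic cells were lower, at 551, 551, 383 and 263 CPM, and both fates were above them by log2 1.64 ± 0.184 SE and 1.66 ± 0.184 SE. Meis1 was higher in amacrine cells by 0.70 ± 0.122 SE and was also above neurogenic cells in both fates (1.38 and 0.68), but without the block the calls against rods (log2 0.71, adjusted p = 0.193) and of rods against neurogenic cells (adjusted p = 0.278) were lost.

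**Figure D1:**
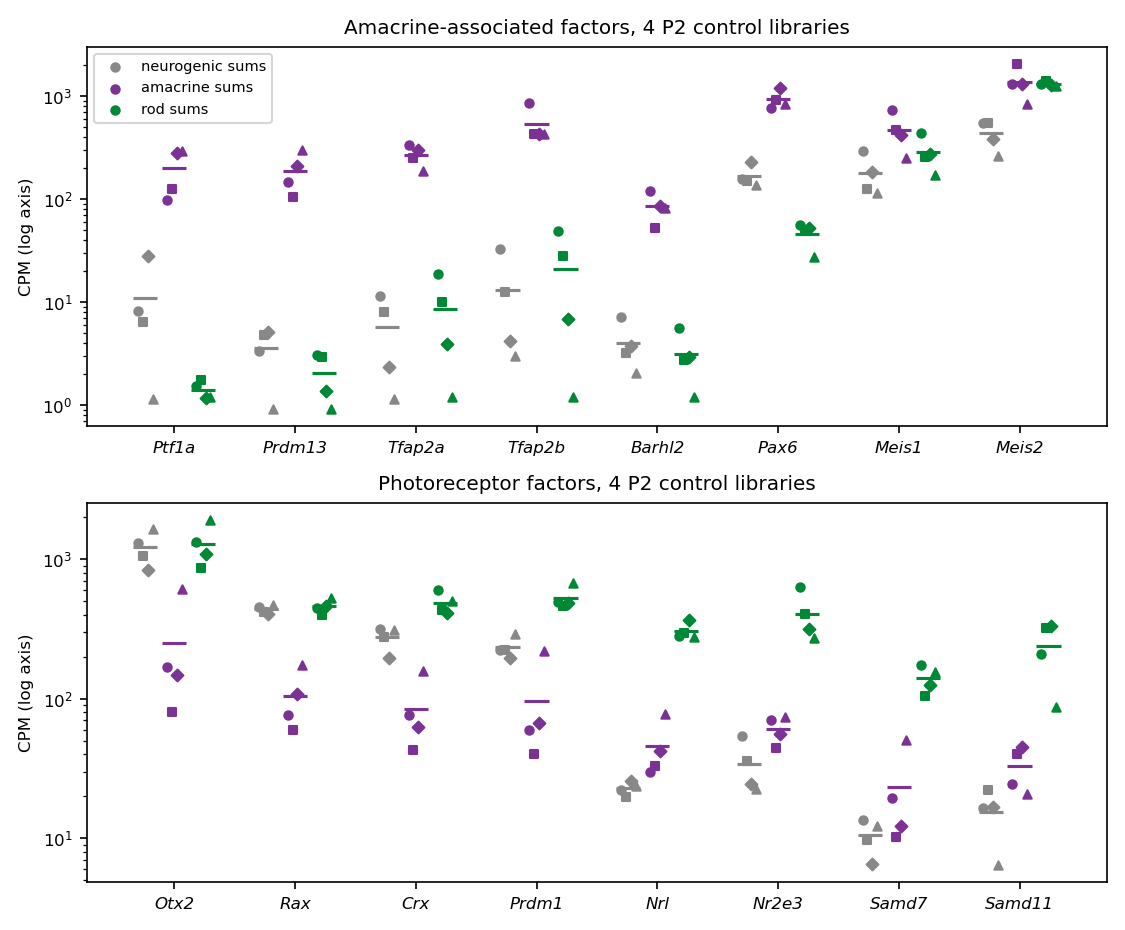
CPM on a log axis for 8 amacrine-associated and 8 photoreceptor factors in neurogenic, amacrine and rod sums. Each point is 1 of the 4 P2 control libraries (circle, square, diamond and triangle for libraries 1 to 4) and the bar is their mean. Otx2 and Rax stand at like levels in neurogenic and rod sums, Nrl and Nr2e3 are high in rods alone, and Meis2 overlaps between amacrine cells and rods.

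Photoreceptor factors showed a split by their level in neurogenic cells. Otx2, on chromosome 14, 48657677 to 48673819, read 1320.5, 870.2, 1086 and 1905 CPM in rods, 1305, 1052, 845 and 1662 in neurogenic cells and 169.6, 80.1, 147 and 610.1 in amacrine cells. Rods and neurogenic cells overlapped (0.05 ± 0.276 SE, adjusted p = 0.895), while amacrine over rod sums gave -2.65 ± 0.298 SE. Rax, a homeobox gene of progenitors and photoreceptors, behaved alike, with 459.6 ± 53.9, 438 ± 28.6 and 105 ± 50.7 CPM in rods, neurogenic cells and amacrine cells. Crx, Prdm1 (which blocks bipolar fate in photoreceptor precursors) and Casz1 were already high in neurogenic cells and higher again in rods, by log2 0.84, 1.17 and 0.84. Without cells that a doublet caller marked, Crx (log2 0.88, adjusted p = 0.107) and Casz1 (log2 0.86, adjusted p = 0.0668) lost these calls, and Crx also without P2 control 3 (log2 0.75, adjusted p = 0.0575). Without the block all 3 lost them (adjusted p = 0.117, 0.0727 and 0.179). Neurod1, a proneural gene kept by photoreceptors, did not pass the test between rods and neurogenic cells (0.52, adjusted p = 0.0786), but passed it without P2 control 2 (log2 0.70, adjusted p = 0.000649), with DESeq2 (0.0479) and without TMM factors (0.0258).

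Nrl, on chromosome 14, 55518978 to 55524981, read 280.1, 296, 368 and 276 CPM in rods and 22.1, 19.8, 25.6 and 23.9 in neurogenic cells. The difference was log2 3.73 ± 0.225 SE. Nr2e3, its target, was higher by 3.56 ± 0.224 SE, and the chromatin-associated proteins Samd7 and Samd11 by 3.74 ± 0.288 SE and 3.83 ± 0.179 SE. These 4 genes were thus more than 10-fold above neurogenic cells, while Otx2 and Rax did not differ beyond their error. Rorb, a nuclear receptor used in both rods and amacrine cells, did not pass the test between the fates (3584, 3615, 3536 and 4790.1 against 3353, 3374, 3345 and 4489 CPM) and was lower in both than in neurogenic cells, calls that were lost without the block (adjusted p = 0.132 in amacrine cells and 0.0927 in rods). Mef2c, a MADS-box factor, went the other way from the rest, higher in amacrine cells by 3.08 ± 0.304 SE. Of 13 tested rod factors, 11 were higher in rods, with a median log2 fold change of -2.63. In amacrine over neurogenic cells 7 of the 13 were lower, led by Otx2 (-2.60), Rax (-2.15) and Crx (-1.79), and 5 were higher (Nrl, Nr2e3, Samd7, Samd11 and Mef2c). Without the block the calls for Nr2e3, Samd7 and Samd11 there were lost (adjusted p = 0.0961, 0.0940 and 0.1001). Esrrb was too low to test.

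The size of the rod-gene differences depended on which cells entered the sums. Rod factors, phototransduction and outer segment genes together (46 tested) had a median level in amacrine sums of 12.9%, 15.2%, 21.8% and 34.5% of that in rods of the same library. Amacrine genes (44 factors, transmitter genes and receptors) stood in rod sums at a median of 6.52%, 5.20%, 6.49% and 3.34%. As summed levels, the rod genes in amacrine sums stood at 32.1%, 38.5%, 39.5% and 52.0% of rods. The amacrine genes in rod sums stood at 29.5%, 25.3%, 30.8% and 31.6% of amacrine cells. The most abundant genes weigh most there, among them Rorb and Meis2, which did not separate the fates. Rorb averaged 3881 ± 607 CPM in amacrine sums, where the rod genes summed to 5478 to 9533 CPM. Meis2 averaged 1312 ± 69.2 CPM in rod sums, where the amacrine genes summed to 2119 to 3251 CPM. Shares without these genes were not computed. The caller Scrublet marked 1153 of the amacrine cells (14.0%) and 319 of the rods (2.35%) as likely doublets, droplets holding more than 1 cell. The marked amacrine cells numbered 1023, 1, 117 and 12 in libraries 1 to 4, so that most came from library 1. There the 46 rod genes, Rorb among them, made up a median of 0.981% of UMIs in marked amacrine cells and 0.460% in unmarked ones. Median depths were 13705 and 6952 UMIs. In library 3 the medians were 0.764% and 0.393%, with depths of 6196 and 3248, and in library 4 they were 1.02% and 0.754%, with depths of 13362.5 and 6525. Over the rods of all 4 libraries the median was 1.69%. In P2 control 2 the caller marked 1 cell of 4712, so it did not work there, as in P5 control 1 (1 of 6292), and leaving out the 10% of cells with the highest score in each library was added after seeing the data.

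Without marked cells, Otx2 went from 6.30-fold to 11.1-fold higher in rods than in amacrine cells, and to 18.1-fold without the highest scores. Nrl went from 7.09-fold to 11.4-fold and 17.1-fold, and Crx from 6.17-fold to 9.99-fold and 15.0-fold. The median of the rod factors moved from -2.63 to -3.32 and -3.90, and that of outer segment genes from -2.44 to -3.18 and -3.74. Amacrine factors moved little, from 3.98 to 4.05 and 4.20. Without marked cells the 46 rod genes stood in amacrine sums at a median of 4.28%, 15.3%, 12.5% and 35.0% of rods. Without the highest scores these medians were 4.76%, 9.72%, 6.92% and 21.7%. The values given elsewhere are those of all cells. Scrublet scores a cell by its likeness to simulated mixtures of cells of the same library. Amacrine cells with rod RNA are thus prone to removal, so wider differences after it are partly built in. Leaving out the highest scores kept 5193, 716, 786 and 274 amacrine cells of 6115, 804, 950 and 383. It kept 6714, 2364, 2160 and 1644 rods of 6928, 2627, 2308 and 1739. How much of the rod RNA in amacrine sums comes from doublets or free RNA was not tested. In amacrine against neurogenic cells, Nrl was higher by 0.90 ± 0.226 SE with all cells (adjusted p = 0.00613), a call lost without marked cells (log2 1.21, adjusted p = 0.0616), and Samd7 lost its call there as well (log2 1.78, adjusted p = 0.0695).

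**Figure D2:**
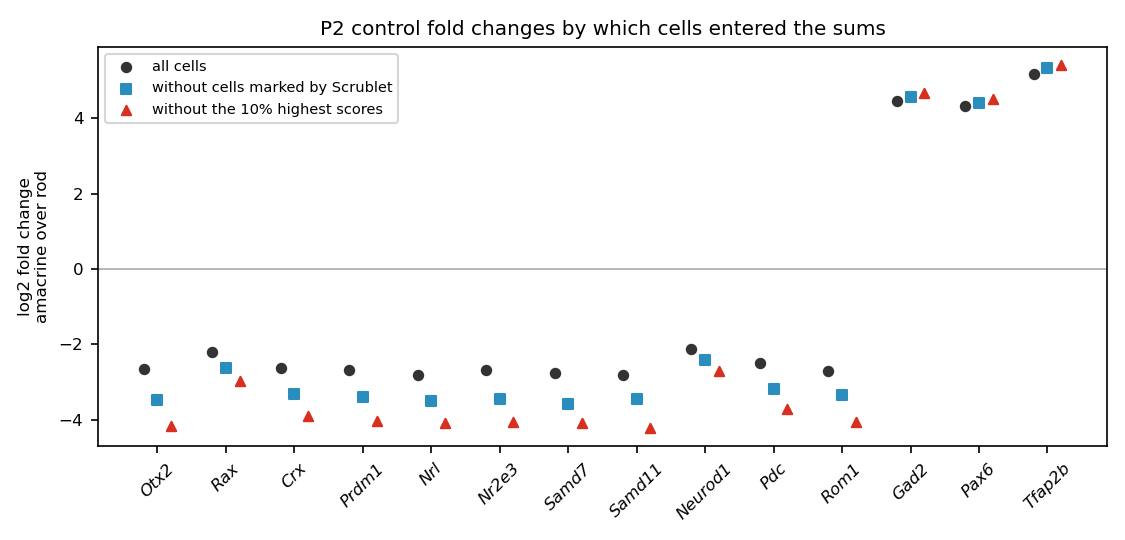
Log2 fold change of amacrine over rod sums for 11 rod genes and 3 amacrine genes with all cells, without cells marked by Scrublet, and without the 10% of cells with the highest scores. Otx2 moves from -2.65 to -4.18 and Nrl from -2.83 to -4.09, while Gad2, Pax6 and Tfap2b stay within 0.25 of their first value.

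Inhibitory transmitter genes were higher in amacrine cells in 7 of 8 cases, all by 2-fold or more, with a median log2 fold change of 4.42. Gad2, which makes GABA, read 569, 315, 522 and 438 CPM in amacrine cells and 32.2, 21.1, 15.4 and 15.9 in rods (4.45 ± 0.194 SE). Slc32a1, the vesicular transporter of both transmitters, averaged 66.9 ± 22.7 CPM against 1.77 ± 2.23, and the neuronal glycine transporter Slc6a5 24.4 ± 6.73 against 0.263 ± 0.180. The exception was the other glycine transporter, Slc6a9. It read 20.1, 27.7, 22.1 and 76.5 CPM in amacrine cells and 30.1, 44.7, 35.9 and 25.6 in rods. Library 4 was above rods and the other 3 were below, and without library 4 the gene was lower in amacrine cells (log2 -0.61, adjusted p = 0.000909). Both fates were above neurogenic cells for it, by 2.10 and 2.17.

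Receptors for glutamate, GABA and glycine were higher in amacrine cells for 16 of 17 tested genes, with a median of 4.33. The AMPA receptor subunit Gria4 read 1729.6, 1240.1, 625 and 694 CPM against 22.6, 46.7, 16.8 and 5.45 in rods, and the kainate receptor subunit Grik2 averaged 596 ± 277 against 26.4 ± 14.1. Gria1, Gria3, Grin2b and Glra2 were higher by 5.63, 5.09, 5.29 and 5.19.

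Genes of neurites and the neuronal cytoskeleton were higher in amacrine cells for 16 of 18, with a median of 3.21. The RNA-binding genes Elavl2 and Elavl3 led them (4.74 and 4.55), and the tubulin Tubb3 read 502, 316, 508 and 740.1 CPM against 53.6, 40.9, 32.8 and 69.6. Map1b, a microtubule-associated protein, and Dpysl3 were higher in rods (-1.56 ± 0.170 SE and -1.25 ± 0.123 SE). Adhesion genes were higher in amacrine cells for 15 of 17, among them Cntnap2 (3.86), with Cntn1 higher in rods (-2.07). Of 26 amacrine subtype genes only 10 reached the level needed for testing, and 7 of these were higher in amacrine cells (median 2.66), including Calb2 (4.96) and Ppp1r17 (5.20). With no filter on low counts, 10 of 25 were higher and the median was 1.06. The starburst genes Chat and Slc18a3 had 9 and 4 UMIs over all amacrine cells.

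Synaptic genes did not move as one group. Of 15 conventional synapse genes, 8 were higher in amacrine cells, 3 higher in rods and 4 did not pass, with a median of 0.37. Rims1, a scaffold of the release site, was higher in amacrine cells (3.89), whereas Cplx2, Syp and the SNARE protein gene Snap25 were higher in rods (-2.08, -1.51 and -1.16). Snap25 read 571, 418, 262 and 455 CPM in amacrine cells, 1379.5, 1011, 630.0 and 823 in rods and 301, 197, 141 and 161 in neurogenic cells, so that it was above the starting level in both fates. Ribbon synapse genes, used at the synapses of photoreceptors and bipolar cells, were higher in rods for 9 of 14 and in amacrine cells for 2. Egflam, which shapes the photoreceptor synapse, was higher in rods (-2.64), and Bsn and Cplx3 were higher in amacrine cells (1.04 and 0.70), the call for Cplx3 being lost without the block (log2 0.79, adjusted p = 0.251).

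Outer segment genes were higher in rods for 16 of 17, with a median log2 fold change of -2.44, and Crb1 alone did not pass (0.03). Rom1, an outer segment disc protein, averaged 708 ± 86.1 CPM in rods and 110.4 ± 37.3 in amacrine cells. Of 16 tested phototransduction genes, 12 were higher in rods and 4 did not pass (Rcvrn, Gnb1, Guca1b and Guca1a). Those higher in rods were 9 of 16 without the block, 9 of 15 without P2 control 1 and 13 of 16 without P2 control 4. Gnb1 was called higher in amacrine cells without P2 control 2 (log2 0.40, adjusted p = 0.0302). It was also called so in cells with at least 2000 UMIs (0.0256) and with libraries taken from barcode starts (0.0477). Pdc, phosducin, read 1909, 1166, 1142 and 869 CPM in rods and 154, 96.8, 96.4 and 80.4 in neurogenic cells. Gnat1, Slc24a1, Gucy2f and Rgs9bp were too low to test.

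**Figure D3:**
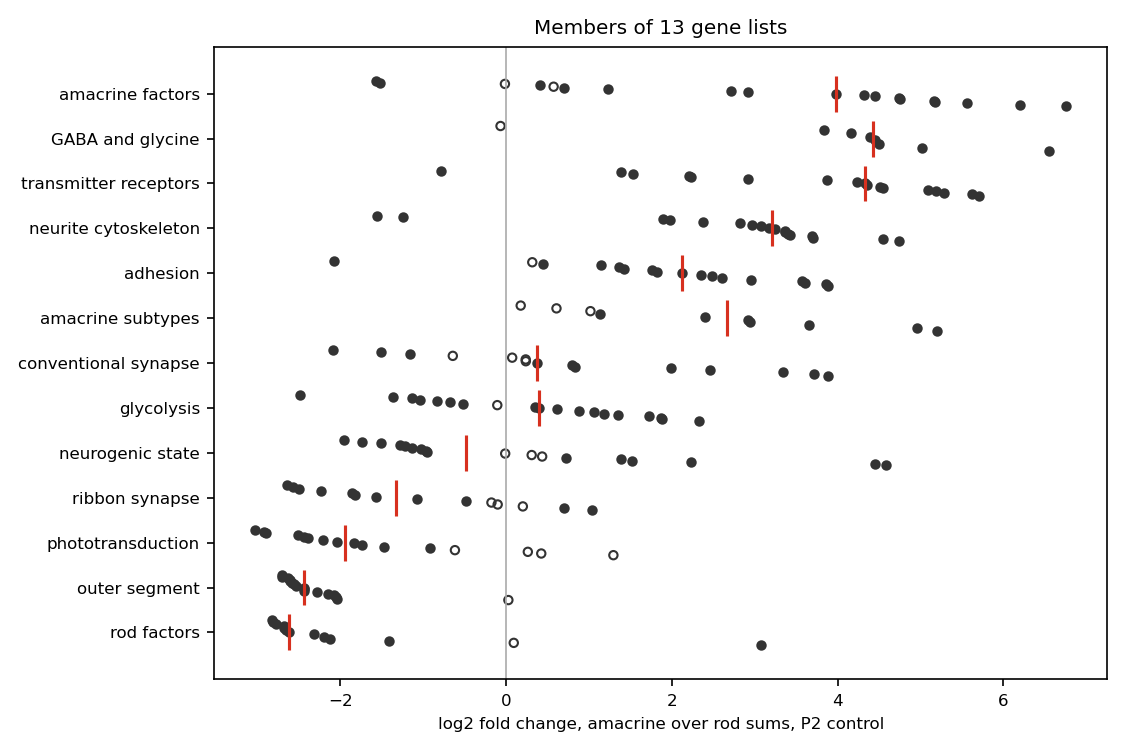
Log2 fold change of amacrine over rod sums in P2 controls for the tested members of 13 gene lists. Filled points passed the test at an adjusted p under 0.05, open points did not, and the red bar is the list median. Transmitter receptors and transmitter genes lie furthest to the amacrine side, outer segment genes and rod factors to the rod side, and synapse and glycolysis genes spread over both.

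Glycolysis genes were divided by member. Lactate dehydrogenase A, Ldha, read 1139, 1081, 1133 and 1438 CPM in rods, 291, 347, 249.7 and 327 in neurogenic cells and 152, 137, 192 and 443 in amacrine cells (-2.49 ± 0.241 SE). Its partner subunit Ldhb was the reverse, at 64.0, 60.2, 63.8 and 80.8, 197, 261, 216 and 258 and 242, 180.4, 301 and 269.8 CPM (1.88 ± 0.145 SE). Rods were above neurogenic cells for Ldha (1.96) and below them for Ldhb (-1.80), while amacrine over neurogenic cells did not pass for either with all cells and libraries (-0.53 and 0.08). Ldha was called lower there without the highest Scrublet scores (log2 -1.16, adjusted p = 0.00651) and without P2 control 4 (-0.87, adjusted p = 0.00102), and Ldhb higher without P2 control 2 (0.33, adjusted p = 0.0217). Over the list, 11 of 19 genes were higher in amacrine cells and 7 in rods. The hexokinase Hk1 and the glucose transporter Slc2a3 were on the amacrine side (1.72 and 2.33), and Tpi1 on the rod side (-1.37).

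Genes of the neurogenic state were lower than in neurogenic cells in both fates, 14 of 18 in amacrine cells and 14 of 18 in rods. Atoh7, a proneural factor, read 126, 98.8, 147 and 273 CPM in neurogenic cells, 5.30, 8.90, 18.8 and 37.2 in amacrine cells and 18.1, 13.9, 31.0 and 49.4 in rods. Neurog2, another proneural factor, differed: it read 68.0, 34.6, 55.6 and 123 CPM in amacrine cells, 53.7, 88.3, 47.5 and 201 in neurogenic cells and 3.03, 3.22, 0.585 and 3.59 in rods. Amacrine cells did not pass the test against neurogenic cells (-0.35 ± 0.268 SE, adjusted p = 0.313), and rods over neurogenic cells gave -4.93 ± 0.344 SE. Sox11, a factor of immature neurons, was above neurogenic cells in amacrine cells (2.71) and below them in rods (-1.74). Of 12 tested cell cycle genes, 4 were higher in amacrine cells and 1 in rods, and Mki67 and Top2a did not pass (0.53 and -0.16). Of 16 nuclear architecture genes, 7 were higher in amacrine cells and 4 in rods, including the histone methyltransferase gene Suv39h2 (-1.74 ± 0.153 SE). Lbr, which tethers heterochromatin to the nuclear envelope, did not pass (-0.07).

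The 10 largest differences toward amacrine cells, among called genes with a mean of at least 5 log2 CPM and 1 direction in all 4 libraries, were Asic2, Anks1b, Runx1t1, Gria4, Nrg3, Mgat4c, Tfap2b, Ptprk, Kif5c and Ctnna2, from 6.76 to 5.00. Asic2, an acid-sensing ion channel, read 2089, 1430.3, 535 and 1056 CPM in amacrine cells, 11.7, 26.4, 12.1 and 2.66 in rods and 7.01, 12.6, 7.45 and 3.67 in neurogenic cells. Kif5c, a kinesin motor, was also lower in rods than in neurogenic cells (-2.87), whereas Asic2, Anks1b, Runx1t1, Gria4 and Nrg3 did not pass that test. Gria4 was called lower in rods without P2 control 2 (log2 -1.10, adjusted p = 0.0184) and in cells with at least 2000 UMIs (-0.96, adjusted p = 0.0169). The 10 largest toward rods were Pcp2, Nrl, Samd11, Fabp7, Rom1, Rreb1, Tmem158, Mak, Gulp1 and Abca4, within -2.88 to -2.70. These values lie too close together to rank, and they are those of all cells, on which differences toward rods depended. Fabp7, a fatty acid binding protein, read 3272, 3844, 7907 and 3693 CPM in rods, 1921, 2802, 2841 and 1156 in neurogenic cells and 379.8, 384, 1091 and 888 in amacrine cells. In rods over neurogenic cells, Abca4 did not pass the test (0.42) and Gulp1 was higher by 0.61, a call lost without marked cells (adjusted p = 0.154), without P2 control 1 (0.0849) and without the block (0.151), whereas Pcp2 and Mak, a kinase of photoreceptor cilia, were higher by 3.70 and 2.99.

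Markers of other cell types were present at unequal levels. The 11 cone markers summed to 1737 to 2898 CPM in rods, 287 to 951 in amacrine cells and 251 to 352 in neurogenic cells. Most of this was Gngt2, a cone transducin subunit, at 1702 ± 637 CPM in rods, while Opn1mw had no UMI in rods and Thrb, a cone thyroid hormone receptor, did not pass between the fates (-0.24). The 11 bipolar markers summed to 255 to 456 CPM in rods and 70.3 to 171 in amacrine cells, of which Pcp2 was one, and Vsx1 and Grm6 had no UMI in either. Glial markers summed to 444 to 777 CPM in rods and 360.0 to 531 in amacrine cells, horizontal cell markers to 79.1 to 163 and 180.1 to 360 (these include Prox1, which is also an amacrine subtype gene), and ganglion cell markers to at most 19.7. Markers of non-retinal cells summed to 32.9 to 116 CPM in amacrine cells and 9.90 to 20.7 in rods. The amacrine value was mostly Cldn5, an endothelial tight junction gene, at 30.4, 35.9, 113 and 28.3 CPM (5.81 ± 0.336 SE), while the endothelial gene Pecam1 averaged 1.46 ± 1.06. Their part in the differences above was not tested.

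Within each fate the clusters of the authors differed in these genes, given as means over libraries with at least 20 cells of the cluster (n = 4, but n = 3 in cluster 17, of which P2 control 4 had 6 cells) and with no test, since the clusters were made from the same genes. Amacrine cluster 13 (1283 cells) was highest in Ptf1a, at 607 ± 121 CPM against 119 ± 96.3 in cluster 6 and under 10 in clusters 7, 9 and 17. It was also highest in Sox11 (1533 ± 866) and in Cldn5 (188 ± 104). Meis2 ran the other way, at 253 ± 104 CPM in cluster 13, 468 ± 91.1 in cluster 6, and 2797 ± 752, 3098 ± 428 and 3778 ± 845 in clusters 7, 9 and 17. The 3 rod clusters held 1572 ± 251, 1188 ± 124 and 648 ± 136 CPM of Meis2, between the lowest and the highest amacrine clusters. Cluster 13 held 14.3%, 11.1%, 22.3% and 28.5% of the amacrine cells of libraries 1 to 4, and cluster 9 held 18.3%, 23.8%, 5.68% and 7.05%. The amacrine sums therefore mixed these clusters in unequal parts, whose part in the Meis2 and Ptf1a results was not tested.

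Rod clusters 0, 1 and 2 held 6197, 4706 and 2699 cells. Nrl stood at 215 ± 27.9, 385 ± 49.3 and 600.0 ± 106 CPM in them, and the arrestin gene Sag at 181 ± 97.1, 441 ± 299 and 2551 ± 1209.8. Otx2 went down in the same order, at 1436 ± 436, 1286 ± 499 and 883 ± 411. Cluster 2 held 25.3% of the rods of library 1, 19.0% of those of library 2, 12.9% of those of library 3 and 8.68% of those of library 4. In the 2 neurogenic clusters, Crx stood at 312 ± 88.1 CPM in cluster 4 and 128 ± 37.8 in cluster 11, and Neurog2 at 45.6 ± 32.9 and 245 ± 154, with Otx2 high in both (1244 ± 424 and 975 ± 283). Nrl levels in the 5 amacrine clusters lay between 18.8 ± 11.9 and 52.7 ± 23.5 CPM.

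**Figure D4:**
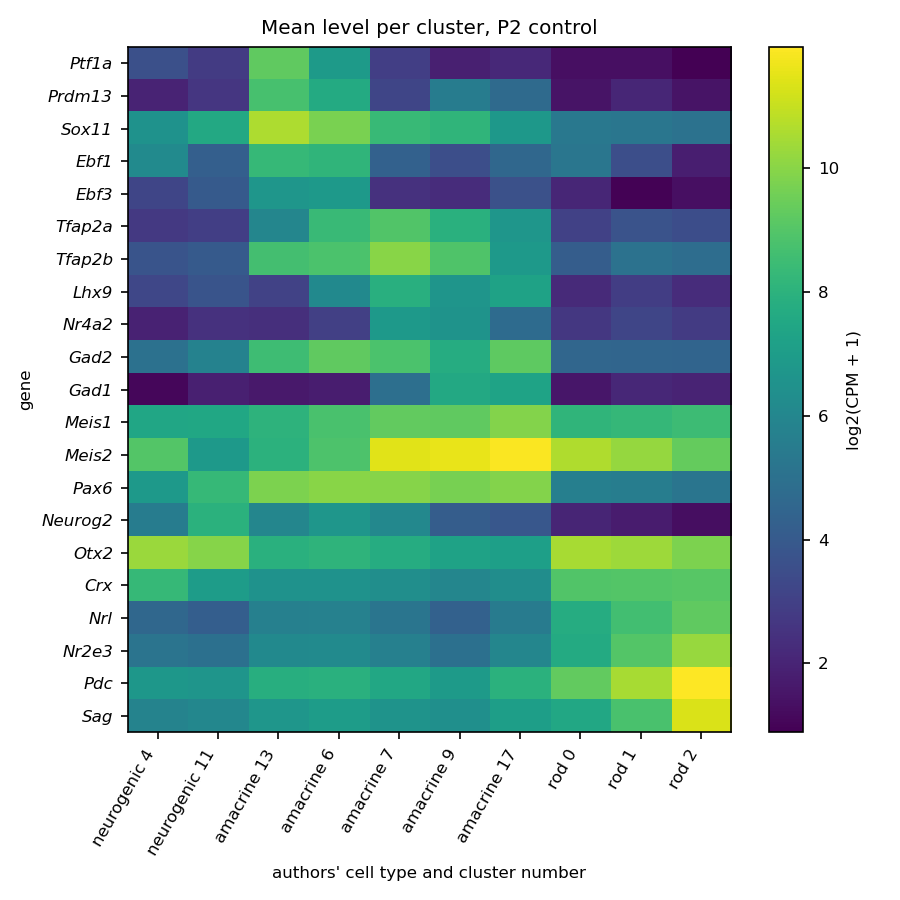
Mean level, as log2(CPM + 1), of 21 genes in the 2 neurogenic, 5 amacrine and 3 rod clusters of the authors in P2 controls. Ptf1a, Prdm13 and Sox11 are highest in amacrine cluster 13, Meis2 and Gad1 in clusters 9 and 17, and Pdc and Sag in rod cluster 2.

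At P5 the control libraries together held fewer amacrine cells than at P2 (1264 against 8252), with 866, 155, 155 and 88 per library. P5 control 1 held more than P2 controls 2 and 4. Amacrine cells per rod were 0.201, 0.0726, 0.0577 and 0.0720. Between amacrine cells and rods 7269 of 14049 tested genes differed (51.7%), 25.5% higher in amacrine cells and 26.2% higher in rods, or 19.9% and 13.9% by 2-fold or more. Amacrine factors were higher in amacrine cells for 15 of 18 tested, with a median of 5.39, and rod factors higher in rods for 11 of 13, with a median of -3.17. Rorb and Mef2c were the 2 rod factors on the amacrine side (0.56 and 3.15). Phototransduction genes were higher in rods for 15 of 16. Ptf1a read 1.29, 0, 221 and 15.6 CPM in P5 amacrine cells, so that library 3 alone was near the P2 level. Sag read 4237, 6051, 2937 and 3808 CPM in P5 rods, above each P2 rod sum (1129, 614, 429 and 186). Here and below, CPM of P2 and P5 sums were scaled with TMM factors of separate fits, which limits comparing them between ages.

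The difference between amacrine cells and rods itself changed with age for 358 genes (2.55%), 213 (1.52%) moving toward amacrine cells at P5 and 145 (1.03%) toward rods, or 1.42% and 0.897% by 2-fold or more. This count depended on every library: it was 133, 164, 97 and 144 without P2 controls 1 to 4, and 935, 132, 856 and 111 without P5 controls 1 to 4. DESeq2 gave 872 and the fit without the block 13. None of the 13 rod factors passed and 3 of 18 amacrine factors did, among them Ebf1 and Bhlhe22 (2.28). Ebf1, a factor of amacrine cells, was the amacrine factor among the largest changes, with a log2 difference of 2.92 at P2 and 5.97 at P5 (change 3.04 ± 0.367 SE, adjusted p = 0.00399). It read 147, 146, 174 and 273 CPM in amacrine cells at P2 and 898, 741, 525 and 782 at P5, with no overlap, while rods stood at 18.1, 15.4, 27.1 and 39.3 and 24.3, 8.53, 11.9 and 6.38.

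Nfix, a nuclear factor I gene of late progenitors, showed the largest change toward amacrine cells among called genes with a mean of at least 5 log2 CPM at P2 (3.86 ± 0.507 SE, adjusted p = 0.00460). It did not pass at P2 (0.46) and was 4.31 at P5. At P2 it was called higher in amacrine cells with neurogenic sums left out of the fit (log2 0.45, adjusted p = 0.0204). The same held with libraries taken from barcode starts (0.54, adjusted p = 0.0316), where P2 control 1 is replaced by cells labelled MEIS combination. Dlg2, a postsynaptic scaffold, changed most in the other direction under the same limit (-3.00 ± 0.481 SE, adjusted p = 0.0124). Its rod level was 324, 279, 106 and 45.1 CPM at P2 and 1975, 2339, 976 and 1930.0 at P5, each P5 value above each P2 value, while amacrine cells overlapped between ages. Mab21l1 and Car2, a carbonic anhydrase, were higher in amacrine cells at P2 (1.61 and 1.47) and lower there at P5 (-0.34 and -0.90), but the P5 call for Mab21l1 (adjusted p = 0.0431) was lost in 8 of 11 alternatives, among them leaving out P5 control 1, 2 or 4 (log2 -0.22 without control 4, adjusted p = 0.329), DESeq2 (0.0955) and no block (0.283). The age calls for Mab21l1, Car2 and Kcnc2 held in all 15 alternatives run, those for Nfix, Ebf1, Dlg2 and Mfap4 were lost without the block alone (adjusted p = 0.0542, 0.0532, 0.287 and 0.247), and those for Enho, Svil and Pbx3 were lost in 7, 6 and 5.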

How the data were processed

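The authors deposited raw UMI counts per gene and cell (10x 3′ v3.1, per the labels' protocols), with a deposited description of each cell. Per the submitters' processing notes, Cell Ranger, Seurat 5 and mm10 were used; filters and versions beyond these are not given in the sources used here. Mitochondrial percent, deposited by the authors, was recomputed within 0.01 in all 51427 cells read. The count columns of 11 other barcode starts (27582 cells) were not used.

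UMIs of all cells of a deposited type were added up within each library (sums of at least 20 cells), filtered with filterByExpr, scaled by TMM and tested with edgeR 4.0.16 quasi-likelihood (R 4.3.3) with the library as a block, since the types of 1 library share it. The P2 fit had 12 sums and 6 residual degrees of freedom. Fold changes are log2 with their SE, and CPM errors are SD over 4 libraries, or 3 for cluster 17. Genes named in the text are the tested factors of the amacrine and rod lists, the 10 largest differences per direction with a mean of at least 5 log2 CPM, the 4 highest members of each other list, 5 age changes per direction, Meis1, Meis2 and GFP (125 genes); further list members are given as examples chosen after their values were seen, and some genes are not reported here. Scrublet (scanpy 1.11.5, expected 6%) marked doublets, which were kept in the sums. Motif letters came from RefSeq promoter windows. The fit was also run on simulated sums in which few genes changed. That run does not show how the fit performs where most genes differ, and its outcome is not used here. Alternatives were DESeq2 1.42.0, other scaling, filters, cells and libraries. The members and lists were chosen with earlier results of these data known.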

Additional observations from a re-analysis of the deposited data

Results flagged for a closer look

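In 124 groups of 4 libraries tested for a value far from the other 3, of which chance flags about 1 in 20, 11 were found. For the log2 difference of amacrine over rod in P2 libraries, library 4 stood apart for Nrl at -1.83 (others -3.23 to -3.11), Samd7 at -1.61 (others -3.34 to -3.14), Six3 at 1.72 (others 1.03 to 1.07), Slc6a9 at 1.57 (others -0.69 to -0.58), Snap25 at -0.86 (others -1.27 to -1.27), Pecam1 at -1.80 (others 0.12 to 0.27) and Dlg2 at 3.59 (others 1.60 to 1.87). Pecam1 was near the floor, at 0 to 2.46 CPM in amacrine sums and 0.399 to 2.15 in rod sums. Library 1 stood apart for Gngt1 at -2.84 (others -1.81 to -1.68). Library 2 stood apart for Maf at 1.65 (others -0.43 to -0.30) and Hes6 at -1.34 (others -0.94 to -0.90). Of these, 7 were in library 4, which also had the fewest amacrine cells (383) and the highest median level of rod genes in amacrine sums (34.5% of rods); the part of this in the values was not tested. Among P5 controls, library 1 had 0.201 amacrine cells per rod, against 0.0577 to 0.0726 in the others.

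The difference between amacrine cells and rods changed between ages, by the test of the change itself, toward amacrine cells at P5 for Nfix (3.86), Mfap4 (3.49), Kcnc2 (3.33), Enho (3.20) and Ebf1 (3.04), and away from them for Dlg2 (-3.00), Car2 (-2.36), Svil (-1.99), Mab21l1 (-1.95) and Pbx3 (-1.84).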

How the results depend on the processing

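No named gene reversed its direction while called on either side, in 5108 recomputed values: 4818 kept their side of the threshold, 229 lost it and 61 gained it, and 66 changed sign while called in neither fit. Without the replicate block, the counts of genes called were 4092 for amacrine minus rod at P2 (7355 with it), 2931 for amacrine minus neurogenic (6191) and 2542 for rod minus neurogenic (6075). The counts of these 3 comparisons otherwise stayed within 1.5 times of their first value. For the change between ages (358 genes, 200 up and 126 down by 2-fold or more), DESeq2 gave 872 (469 and 203), no filter on low counts 640 (323 and 260), no replicate block 13 (10 and 3), and leaving out the 10% of cells with the highest Scrublet scores, added after seeing the data, 195 (110 and 80). Leave-one-out counts ranged from 97 to 935, from 65 to 412 for 2-fold or more up and from 32 to 373 for 2-fold or more down; the cause was not tested. Depth limits low genes: Gnat1, Neurod6, Esrrb and most amacrine subtype genes could not be tested.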
